A study of Mus musculus with 36 samples.

Results

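DBA/1J and DBA/2J are sister inbred strains of mouse, separated early in the history of the DBA stock and since kept apart, and here 6 hippocampus libraries of DBA/1J were compared with 6 of DBA/2J. The 12 libraries were taken by strain from a series of 36 (6 inbred strains, 3 males and 3 females of each), and their deposited counts were joined by Ensembl gene. Each library held the RNA of the whole hippocampus of 1 adult mouse bought from a breeder, and both sexes had equal weight in the comparison. DBA/1J males were 62 days old and DBA/1J females 63 days, and DBA/2J mice of both sexes were 62 days old. The labels name no engineered allele and no treatment for either strain, and mice were housed in groups.

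The 2 strains share most of their genome by descent, and differ where they had not yet become uniform when they were split or have since mutated. The best known difference is the major histocompatibility complex (MHC), where DBA/1J carries the H2q haplotype and DBA/2J the H2d haplotype. DBA/1J is widely used for collagen-induced arthritis, and DBA/2J for pigmentary glaucoma, hearing loss, seizure susceptibility and alcohol studies. The hippocampus is a layered structure for memory formed of dentate granule cells, pyramidal cells of the CA fields, interneurons, glia and vessels.

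Total counts ran from 16348030 to 26699617 in DBA/1J libraries and from 6493512 to 21607811 in DBA/2J libraries, 3 of which had 6493512 to 7814418 and are called shallow below. The share of counts from mitochondrially encoded genes was 6.29% to 9.62% in DBA/1J libraries and 10.8% to 12.1% in DBA/2J libraries. The 2 strains separated on the first principal component of log2 CPM (CPM are counts scaled to the library total), which held 46.8% of the variance and ran from -50.13 to -32.93 in DBA/1J and from 7.18 to 60.83 in DBA/2J. The DBA/2J library nearest to DBA/1J was male replicate 1, at 7.18. DBA/1J male replicate 3 stood apart from its strain in Gfap and some immune genes, described below beside the other DBA/1J libraries. Fold changes without it are given for Gfap and Ifit3 only, and all 110 called genes that were named kept their direction and call without it. No label says which libraries were sequenced together in a lane.

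Of 19702 genes tested with edgeR's quasi-likelihood test, 10822 (54.9%) passed an adjusted p of 0.05 in DBA/1J minus DBA/2J, 5809 (29.5%) higher in DBA/1J and 5013 (25.4%) lower. Most of the differences were small, with a median absolute log2 fold change of 0.46 among the genes called, and 1487 of the called genes differed by more than 2-fold. The 6 DBA/1J and 6 DBA/2J libraries did not overlap in 30.4% of the genes tested, and 4.2% were called, did not overlap and differed by more than 2-fold. Among the 15 pairs of the 6 strains in the same fit, the number of called genes ran from 3793 for A/J and C57BL/6J to 14544 for 129S1/SvImJ and PWD/Ph.

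The direction of the strain difference moved with the base composition and length of the transcript. In the quintile of genes with the lowest GC content (17.1% to 43.8%) the median log2 fold change was -0.41, with 237 genes higher in DBA/1J and 2365 lower. In the quintile with the highest GC content (55.5% to 91.6%) it was 0.43, with 2585 genes higher and 50 lower. The shortest quintile of transcripts had a median of 0.34 and the longest quintile -0.16. Within single libraries, high-GC genes lay above low-GC genes by 0.22 to 0.64 log2 units in the 6 DBA/1J libraries and by -0.45 to -0.21 in the 6 DBA/2J libraries, with no overlap. An offset for each library's own trend on GC content and length brought the medians of all 10 quintiles to between -0.09 and -0.03. With the offset, 7068 of 19147 genes (36.9%) were called, 2521 (13.2%) higher in DBA/1J and 4547 (23.7%) lower, and 4935 of them were called in the same direction without it. The deposited FPKM values moved the split the other way, with 8042 genes higher in DBA/1J and 2136 lower, and a median log2 fold change over all genes of 0.21 against 0.05 by count. A difference under 2-fold is therefore given below with its value under the offset, where that value ends the call, turns its sign or differs by more than 1.5 times.

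**Figure D1:**
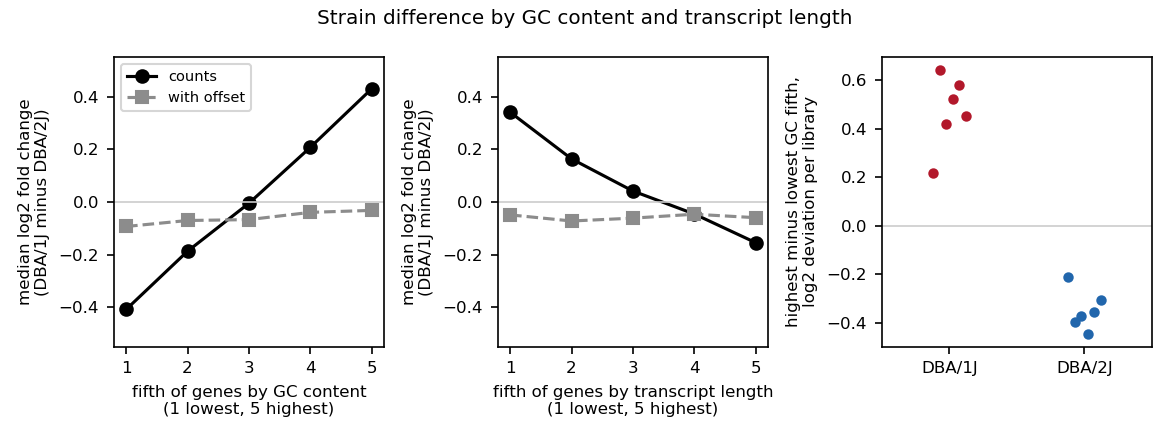
The left and middle panels plot the median log2 fold change, DBA/1J minus DBA/2J, of genes in quintiles of GC content and of transcript length, from the counts (circles) and with the offset (squares). The right panel plots, for each library, how far the highest GC quintile lay above the lowest. The medians run from -0.41 to 0.43 across GC quintiles, and lie between -0.09 and -0.03 with the offset.

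A set of 253 genes was called and differed by more than 2-fold both without and with the offset, with libraries that did not overlap and a mean of at least 1 CPM (1.32% of the 19147 genes with a GC content and length). Of these, 183 were higher in DBA/1J and 70 lower. They comprised 93 protein-coding genes (59 higher, 34 lower), 69 processed pseudogenes (56 higher) and 32 small nucleolar RNAs (31 higher). The 93 protein-coding genes had the same sign in males and in females, which follows from choosing genes whose libraries did not overlap. Of them, 85 were called in each sex on its own, from the same values that chose them. DBA/1J lay apart from the other 30 libraries of the series for 9 of the 93 and DBA/2J for 9.

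S100b, which encodes a calcium-binding protein abundant in astrocytes, was all but missing in DBA/1J. The 6 DBA/1J libraries held 2 S100b counts in all, against 4598 in the 6 DBA/2J libraries. Its level was 0, 0 and 0.05 CPM (lowest, median and highest) in DBA/1J, against 49.6, 60.9 and 63.1 CPM in DBA/2J. The other 24 libraries had 61.5 to 164 CPM, and DBA/1J lay below all 30 other libraries of the series. Relative to total counts, DBA/2J libraries held 3840 times as many S100b counts as DBA/1J libraries (95% exact interval 1060 to 31700, for counting error only). Of the 16 astrocyte markers tested, S100b among them, 6 were higher in DBA/1J and 6 lower, 75.0% called against 54.9% over all genes. With the offset 2 of the 16 were higher and 4 lower, where 13.2% of all genes were higher and 23.7% lower. The median log2 fold change of the 16 markers was -0.06 by count and 0.24 by the deposited FPKM, which turns the sign.

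Dip2a, the neighbour of S100b on chromosome 10, was also lower in DBA/1J by count. Its 6 DBA/1J libraries had 27.4, 30.03 and 34.2 CPM (lowest, median and highest), against 57.1, 61.0 and 65.4 CPM in DBA/2J libraries. The log2 fold change was -1.01 ± 0.06 (SE, adjusted p = 6.39e-14 by edgeR's quasi-likelihood test). DBA/1J lay below all 30 other libraries for this gene too. S100b (10:76253853-76261159, plus strand, GRCm38) and Dip2a (10:76259429-76345291, minus strand) overlap at their ends in the annotation, and no source used here gives the strand setting of the counting, so reads of the overlap cannot be told apart. The deposited FPKM of Dip2a ran the other way, at 12.9 to 17.1 in DBA/1J and 9.20 to 12.1 in DBA/2J, a log2 fold change of 0.56 on the log2(FPKM + 0.1) scale.

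Several other protein-coding genes were at well under the DBA/2J level in DBA/1J. Sfi1, which encodes a centrosome protein, had 25.1, 33.0 and 40.8 CPM (lowest, median and highest) in DBA/1J, against 129.8, 153 and 197 CPM in DBA/2J, a log2 fold change of -2.24 ± 0.10 (adjusted p = 2.72e-17 by edgeR). Pisd-ps1, a pseudogene just beside it on chromosome 11, fell with it to 14.2 ± 3.56 CPM in DBA/1J, against 50.8 ± 5.86 CPM in DBA/2J (SD, n = 6 each), and both are multi-copy sequences whose reads may be shared with copies elsewhere. Lyrm7, an assembly factor of mitochondrial complex III, had 2.73, 3.38 and 3.62 CPM in DBA/1J, against 12.8, 13.6 and 15.4 CPM in DBA/2J. Its log2 fold change was -2.11 in males and -2.098 in females. Dnajc28, a member of the DNAJ co-chaperone family, had 3.19, 3.63 and 4.001 CPM in DBA/1J, against 11.3, 14.2 and 18.2 CPM in DBA/2J, and DBA/1J was the lowest of the 6 strains with no overlap. Cdr1, a gene whose locus makes a circular antisense RNA abundant in neurons, had 48.4, 77.9 and 94.7 CPM in DBA/1J, against 177 to 301 CPM in DBA/2J, and linear and circular RNA of either strand cannot be told apart in these counts. Its log2 fold change was -1.69 ± 0.14 (adjusted p = 2.03e-10).

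Tfpi (an inhibitor of tissue factor in clotting) had a log2 fold change of -2.14 ± 0.22, and DBA/1J lay below all other libraries of the series. Slitrk6, a membrane protein of neurite growth, had -2.29 ± 0.22 and Gbp7, an interferon-inducible GTPase, -1.77 ± 0.19. In Gbp7, DBA/1J male replicate 3 stood out with 6.65 CPM against 1.81 to 2.54 CPM in the other 5 DBA/1J libraries. Klk14 (a serine protease), Serpina1b (a serine protease inhibitor of a multi-copy family, whose reads may be split among copies) and Gpr171 (a G protein-coupled receptor) had log2 fold changes of -1.65 ± 0.27, -1.82 ± 0.45 and -1.61 ± 0.40.

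Arl15, a small GTPase, had 33.9 ± 4.03 CPM in DBA/1J and 81.3 ± 4.21 CPM in DBA/2J (SD, n = 6 each), a log2 fold change of -1.26 ± 0.08 (adjusted p = 3.79e-13). Car2, a carbonic anhydrase of oligodendrocytes and other cells, had 82.3, 97.4 and 109.6 CPM (lowest, median and highest) in DBA/1J, against 157, 178 and 187 CPM in DBA/2J, and DBA/1J lay just below the lowest of the other libraries. Akr1e1 (an aldo-keto reductase), Zfp367 (a zinc finger protein), Sycp3 (a meiotic chromosome protein) and Ctcfl (a germline paralogue of CTCF) had log2 fold changes of -1.41, -1.15, -1.46 and -1.47. By the deposited FPKM, the call of Zfp367 was lost, at -0.24. Caps2, a calcium-binding protein gene, was less tight, with 56.5 to 114 CPM in DBA/1J and 121 to 224 CPM in DBA/2J.

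The genes higher in DBA/1J included secreted, metabolic and membrane proteins. Ccl28, a chemokine of mucosal surfaces, had 3.51, 5.96 and 8.25 CPM (lowest, median and highest) in DBA/1J, against 0.27, 0.55 and 0.82 CPM in DBA/2J, a log2 fold change of 3.36 ± 0.32 (adjusted p = 1.91e-09 by edgeR). Genes just before it on chromosome 13 were higher too, of which 4833420G17Rik had a log2 fold change of 1.58 ± 0.10 and Tmem267, a membrane protein gene, 1.505 ± 0.17. Further along, Hmgcs1 was lower in DBA/1J, at -0.43 ± 0.06, and at -0.19 with the offset. Gpnmb, the glycoprotein gene whose stop codon in DBA/2J underlies part of its pigmentary glaucoma, had 1.54, 1.85 and 2.86 CPM in DBA/1J, against 0.05, 0.16 and 0.54 CPM in DBA/2J. DBA/2J lay below all 30 other libraries for Gpnmb, and DBA/1J was within the 0.74 to 4.33 CPM of the other 4 strains.

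Tmem245, a membrane protein gene that hosts a microRNA, was abundant in both strains. Its 6 DBA/1J libraries had 999, 1103 and 1420 CPM (lowest, median and highest), against 266, 273 and 629 CPM in DBA/2J. The log2 fold change was 1.79 ± 0.20 (adjusted p = 2.68e-08), and DBA/1J lay above all 30 other libraries. The highest DBA/2J value was that of male replicate 1, with the other 5 libraries at 266 to 304 CPM. Lrrc17, a secreted leucine-rich repeat protein gene, had 50.7 to 164 CPM in DBA/1J, against 8.24 to 37.3 CPM in DBA/2J, the highest again in male replicate 1, a log2 fold change of 2.69 ± 0.36. In the other 4 strains it ran from 8.07 to 1633 CPM.

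Enzyme genes higher in DBA/1J included Hal, histidine ammonia-lyase (log2 fold change 2.81 ± 0.43), Aldh1a3, which makes retinoic acid (1.95 ± 0.22), Cyp2e1, a cytochrome P450 that oxidises ethanol (1.84 ± 0.21), and Apobec3, a cytidine deaminase that restricts retroviruses (1.61 ± 0.12). Cyp2e1 had 15.5 to 23.8 CPM in DBA/1J and 2.83 to 11.1 CPM in DBA/2J, without overlap. Others were Zfp990 (2.67 ± 0.28), Map3k6 (a kinase, 2.40 ± 0.30), Atp1a4 (a sodium pump subunit, 1.99 ± 0.26), Kcnj15 (an inward rectifier potassium channel, 1.96 ± 0.29) and Pbld2 (1.57 ± 0.18). In Hal, the log2 fold change was 1.402 in males and 4.22 in females, a difference between the sexes that did not pass the interaction test (2.81 ± 0.95, adjusted p = 0.551).

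**Figure D2:**
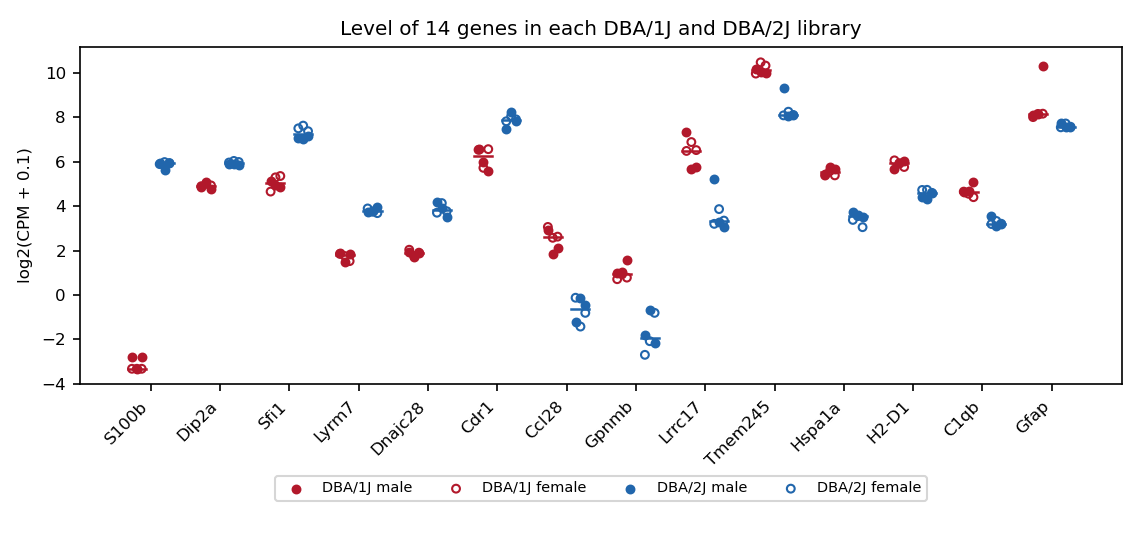
Level of 14 genes, as log2(CPM + 0.1), in each of the 6 DBA/1J (left of each pair, red) and 6 DBA/2J libraries (right, blue), males filled and females open, with lines at the medians. The strains do not overlap in any of these genes. DBA/1J male replicate 3 stands at 1277 CPM for Gfap, and DBA/2J male replicate 1 at 629 CPM for Tmem245.

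The MHC window of chromosome 17 (34000001 to 36000000, GRCm38) held 127 tested genes, of which 85 (66.9%, against 54.9% over all genes) were called, 77 higher in DBA/1J and 8 lower. With the offset 32 were called higher and 31 lower, where 13.2% of all genes were higher and 23.7% lower. On chromosome 10 from 80000001, 80 of 106 (75.5%) were called, 74 higher and 6 lower, and with the offset 19 were higher and 15 lower. On chromosome 7 from 44000001, 72 of 99 (72.7%) were called, 71 higher and 1 lower, and with the offset 20 were higher and 10 lower. These windows were picked from those that held the most called genes, so called shares above 54.9% follow in part from that choice. The median GC content of their tested genes was 55.3% in the MHC window, 59.1% on chromosome 10 and 57.3% on chromosome 7. Of the 253 genes that differed more than 2-fold both ways, 7 lay in the MHC window, 5 in the window around Sfi1 on chromosome 11 and 8, all of them snoRNA genes of a multi-copy cluster, in a window of chromosome 7 from 58000001. They fell in 194 of 1261 windows with a tested gene, and 160 of the 194 held a single one.

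In the MHC window, H2-D1, which encodes a class I heavy chain that presents peptides on the cell surface, had 51.0, 61.2 and 66.6 CPM (lowest, median and highest) in DBA/1J, against 20.1, 24.1 and 26.5 CPM in DBA/2J. The log2 fold change was 1.33 ± 0.11 (adjusted p = 1.2e-10 by edgeR), and DBA/1J lay above all 30 other libraries. The class I and peptide loading list had 7 of 23 tested genes higher and 5 lower (5 and 6 with the offset). In that list 52.2% were called, against 54.9% over all genes, and its median log2 fold change was 0.01, or -0.16 with the offset. Its higher members included Psmb9, a subunit of the immunoproteasome (1.43 ± 0.27), and the peptide transporter genes Tap1 (0.96 ± 0.18) and Tap2 (0.92 ± 0.18, or 0.57 with the offset). Class II genes split: of 9 tested, 3 were higher and 2 lower. H2-DMb1, a chain of the peptide-editing molecule, had 0.39 to 0.76 CPM in DBA/1J and 0 to 0.11 CPM in DBA/2J. Its neighbours H2-DMb2 (-0.71 ± 0.21) and H2-DMa (-0.31 ± 0.10, or -0.66 with the offset) were lower in DBA/1J, and the calls of both were lost without the 3 shallow DBA/2J libraries (adjusted p = 0.19 for H2-DMa). The haplotypes differ in sequence from the C57BL/6J-based reference in this region, and the part of read alignment in these differences was not tested.

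Hspa1a and Hspa1b, inducible heat shock proteins of the HSP70 family encoded side by side in the same window, rose together in DBA/1J. Hspa1a had 41.4, 45.8 and 53.6 CPM (lowest, median and highest) in DBA/1J, against 8.19, 11.5 and 13.3 CPM in DBA/2J. The log2 fold changes were 2.06 ± 0.19 for Hspa1a and 2.098 ± 0.18 for Hspa1b, and DBA/1J lay above all 30 other libraries for both. The 2 coding sequences are near-identical, so the split of reads between them is uncertain. The endoplasmic reticulum chaperones had 3 of 20 genes higher and 8 lower in DBA/1J (0 and 8 with the offset). Over all genes 29.5% were higher and 25.4% lower, or 13.2% and 23.7% with the offset. The interferon-stimulated list had 4 of 37 higher and 3 lower (4 and 4 with the offset). By count 18.9% of that list was called, against 54.9% over all genes. Its higher members included Oas1b, an antiviral enzyme (1.55 ± 0.30), and Ifit3 (0.99 ± 0.23), which without DBA/1J male replicate 3 had 0.62.

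**Figure D3:**
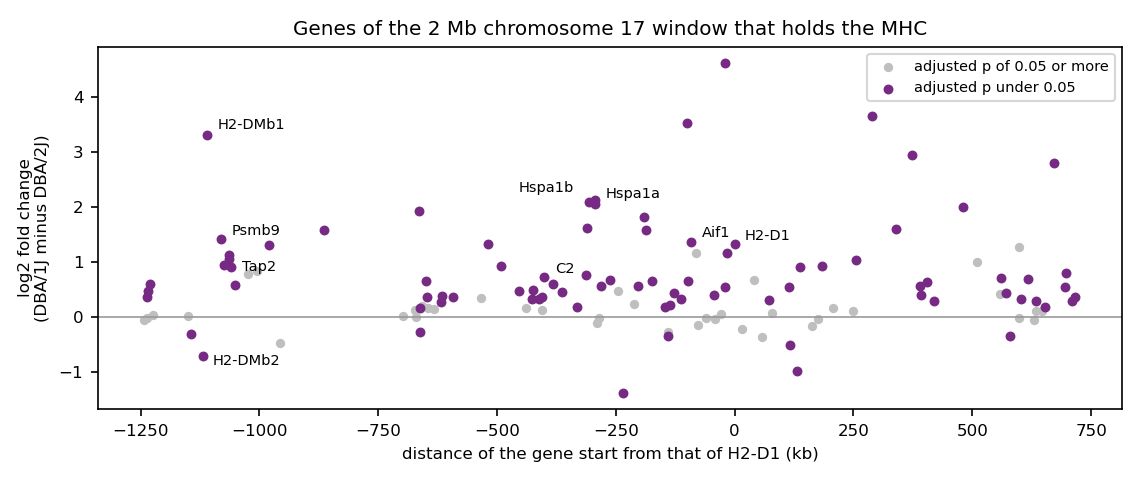
Log2 fold change, DBA/1J minus DBA/2J, of the tested genes that lie within the 2 Mb window of chromosome 17, by distance in kb of the gene start from that of H2-D1. Purple points passed an adjusted p of 0.05 and grey ones did not. Of the 127 genes tested, 77 were higher in DBA/1J and 8 lower without the offset, as plotted, against 32 higher and 31 lower with it, and H2-DMb1 lies at 3.32 and H2-DMb2 at -0.71.

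Microglial and complement genes went both ways. In both lists the smallest p was that of C1qb, a chain of C1q, the first component of the classical pathway. C1qb had 21.04, 25.1 and 33.6 CPM (lowest, median and highest) in DBA/1J, against 8.43, 9.16 and 11.7 CPM in DBA/2J, a log2 fold change of 1.41 ± 0.10 (adjusted p = 3.08e-12), or 0.89 with the offset. C1qc had 1.26 ± 0.13, or 0.75 with the offset. The third chain, C1qa, had 0.61 ± 0.12, and with the offset its log2 fold change was 0.00 and its call was lost. Aif1, a microglial actin-binding protein encoded in the MHC window, had 6.49 ± 0.87 CPM in DBA/1J and 2.44 ± 0.52 CPM in DBA/2J (SD, n = 6 each), with DBA/1J above all other libraries. Gpr34, a microglial receptor, went the other way, at -0.82 ± 0.12, or -0.43 with the offset. In all, 10 of 17 microglial genes were higher in DBA/1J and 3 lower, and with the offset 5 and 5. Over all genes 29.5% were higher and 25.4% lower, and with the offset 13.2% and 23.7%. The summed microglial level was 358 to 418 CPM in DBA/1J and 329 to 365 CPM in DBA/2J. The complement list had 7 of 23 genes higher and 3 lower, 7 and 1 with the offset. By count 43.5% of it was called, against 54.9% over all genes. C2, a classical pathway protease in the MHC window, was among the higher ones (0.73 ± 0.15). In bulk tissue, more cells of a type and more RNA per cell cannot be told apart.

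Gfap, the filament protein that rises in reactive astrocytes, had 257, 284 and 1277 CPM (lowest, median and highest) in DBA/1J, against 187, 190 and 211 CPM in DBA/2J. The highest value was that of male replicate 3, and the other 5 DBA/1J libraries had 257 to 286 CPM. The log2 fold change of 1.06 ± 0.21 became 0.55 without that library and was still called. The astrocyte transporter gene Slc1a2 (-0.43 ± 0.08, or -0.17 with the offset) and gap junction gene Gja1 (-0.39 ± 0.06) were lower in DBA/1J by count. With the offset Gja1 was no longer called, and by the deposited FPKM Slc1a2 had the opposite sign, at 0.19.

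Small nucleolar RNAs (snoRNAs), short nuclear RNAs that guide chemical modification of ribosomal and other RNA and are mostly cut from introns of host genes, were higher in DBA/1J as a class. Of 220 tested, 107 were higher and 11 lower, beside 29.5% higher and 25.4% lower over all genes. The called share was 53.6%, against 54.9% over all genes. Their median log2 fold change was 1.01, or 0.85 with the offset, against 0.05 and -0.06 over all genes. Box C/D snoRNAs take their name from 2 short motifs. Snord49a, Snord49b and Snord83b are shown here as examples because each is set beside its host gene in the text that follows. All of them are also among the 14 genes named for the largest rise in DBA/1J, and Snord49a was the first of these 14. Capitals mark the C box (TGATGA) and the D box (CTGA) as found on the RNA strand, the sequences are those of the GENCODE M21 transcripts, and 141 of the 220 snoRNAs (64.1%) hold both motifs in this order. Snord49a and Snord49b lie together on chromosome 11 (11:62603450-62603521 and 11:62603079-62603150, plus strand), and Snord83b on chromosome 15 (15:80078498-80078591, minus strand), all in GRCm38.
Snord49a: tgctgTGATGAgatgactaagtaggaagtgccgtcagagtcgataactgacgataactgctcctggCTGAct
Snord49b: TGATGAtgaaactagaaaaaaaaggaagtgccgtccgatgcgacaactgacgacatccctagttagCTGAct
Snord83b: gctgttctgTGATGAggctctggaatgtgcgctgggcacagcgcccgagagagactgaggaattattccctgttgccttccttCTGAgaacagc

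Snord49a had 44.5, 49.9 and 70.9 CPM (lowest, median and highest) in DBA/1J, against 0.44, 0.95 and 4.55 CPM in DBA/2J, a log2 fold change of 5.26 ± 0.41 (adjusted p = 5.23e-11 by edgeR). Snord49b had 11.8, 20.9 and 47.7 CPM in DBA/1J, against 0.19, 0.59 and 2.46 CPM in DBA/2J, a log2 fold change of 4.54 ± 0.41. The strains did not overlap for either snoRNA. The log2 fold change was 3.97 ± 0.51 for Snord35a, 3.08 ± 0.31 for Snord89, 2.97 ± 0.28 for Snord83b and 2.93 ± 0.37 for Snord12. The summed snoRNA level was 405 to 816 CPM in DBA/1J and 184 to 260 CPM in DBA/2J, with medians of 251, 378, 404 and 211 CPM in 129S1/SvImJ, A/J, C57BL/6J and PWD/Ph. DBA/1J was therefore the highest strain by median and DBA/2J the lowest, but both overlapped other strains. PWD/Ph had 187 to 256 CPM and 129S1/SvImJ 204 to 313 CPM, which overlap DBA/2J. C57BL/6J had 303 to 502 CPM and A/J 300 to 457 CPM, which overlap DBA/1J.

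The host genes did not differ as much as their snoRNAs. For 123 snoRNAs within a tested gene on the same strand, the median log2 fold change was 0.57, against 0.13 over their 74 hosts. Of the hosts, 37 were higher in DBA/1J and 19 lower, beside 29.5% higher and 25.4% lower over all genes. In 50 of the 123 the snoRNA exceeded its host by more than 1 log2 unit. Snord83b, in Rpl3, had 2.97 beside 0.21 ± 0.05 for Rpl3, and with the offset Rpl3 turned to -0.03, not called, while Snord83b had 2.097. Snord49a and Snord49b, both in 2410006H16Rik, had 5.26 and 4.54 beside 0.55 ± 0.14 for that host. The labels describe isolation of mRNA before library construction, and most mature snoRNAs carry no poly(A) tail, so these values are the levels that remained after that step.

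**Figure D4:**
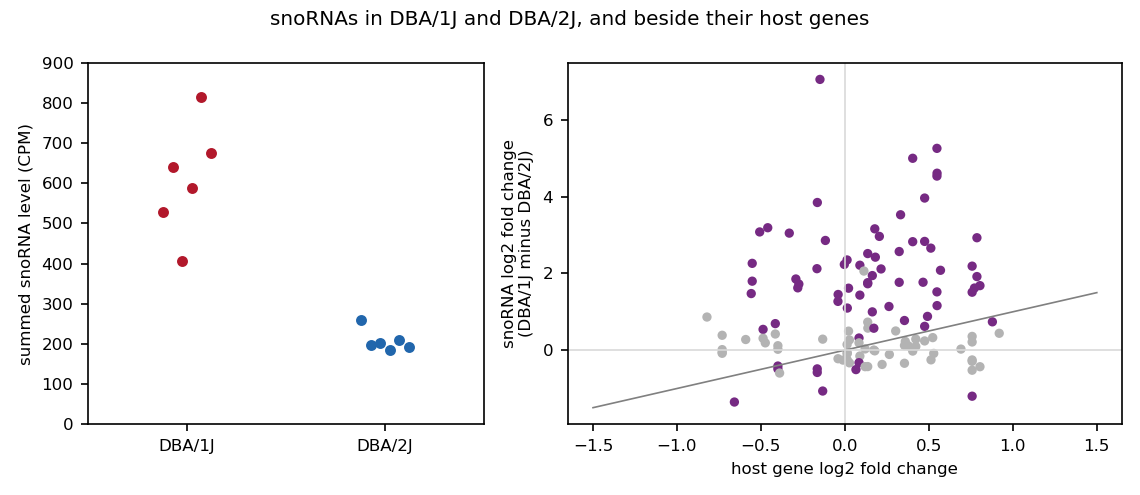
The left panel plots the summed CPM of 220 snoRNAs in each DBA/1J and DBA/2J library, 405 to 816 in DBA/1J and 184 to 260 in DBA/2J. The right panel plots the log2 fold change of 123 snoRNAs, DBA/1J minus DBA/2J, against that of the gene they lie in, with purple for snoRNAs called and the line of equal change. Of the 123 snoRNAs, 79 lie above the line.

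Processed pseudogenes, intronless copies of other genes, were called in 745 of 1369 cases (54.4%, against 54.9% over all genes). Of these, 631 were higher and 114 lower, where 29.5% of all genes were higher and 25.4% lower. The median log2 fold change of processed pseudogenes was 0.50, or 0.17 with the offset. Their reads may belong to the parent gene. Itpa-ps1, on chromosome 2, had 5.84 to 8.75 CPM in DBA/1J and 0 to 0.41 CPM in DBA/2J, and DBA/2J was the lowest of all libraries. Among the genes of the cytosolic ribosome itself, 63 of 79 were higher in DBA/1J and 1 lower, with a median of 0.42. With the offset 35 were higher and 10 lower, with a median of 0.11, where 13.2% of all genes were higher and 23.7% lower. Rps28 had a log2 fold change of 1.25 ± 0.12, or 1.098 with the offset, with 58.8 to 93.2 CPM in DBA/1J and 21.7 to 46.4 CPM in DBA/2J. Rpl38 and Rpl37 had 1.13 and 0.98, and with the offset 0.41 and 0.55.

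Mitochondrially encoded genes were lower in DBA/1J. Of the 13 protein genes of the mitochondrial genome, subunits of the respiratory chain and of ATP synthase, all 13 were called lower, with log2 fold changes from -1.47 to -0.31 and a median of -0.70. With the offset 12 were lower, and by the deposited FPKM 10 were lower and the other 3 were not called. mt-Nd3, a complex I subunit, had 288, 344 and 524 CPM (lowest, median and highest) in DBA/1J, against 874, 1002 and 1214 CPM in DBA/2J, a log2 fold change of -1.47 ± 0.15 (adjusted p = 4.53e-09). mt-Atp8 (-1.33), mt-Nd6 (-1.14) and mt-Nd2 (-1.01) also had libraries without overlap. Over all 37 genes of the mitochondrial genome, transfer and ribosomal RNAs included, 2 were higher and 24 lower, and with the offset 2 and 26. Over all genes tested, 29.5% were higher and 25.4% lower, or 13.2% and 23.7% with the offset. The median of the 37 genes was -0.57 by count and 0.62 by the deposited FPKM, which turns the sign. Among nuclear genes of the organelle, Ndufb8, a complex I subunit, was higher in DBA/1J, at 64.2 ± 6.58 CPM against 35.6 ± 2.70 CPM in DBA/2J (SD, n = 6 each), and DBA/2J lay below all other libraries. Sod1, which removes superoxide in the cytosol, was higher (0.59 ± 0.08), and Sod2, its mitochondrial counterpart, was lower (-0.50 ± 0.07, or -0.16 with the offset).

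Neuronal genes differed by less than these, and many of their values were smaller with the offset. The GABA receptor subunits, which form the inhibitory chloride channels and metabotropic receptors of the brain, had 10 of 18 genes lower in DBA/1J. The other 8 were not called, and the called share was 55.6%, against 54.9% over all genes. Their median log2 fold change was -0.34, and with the offset 1 was higher and 6 lower, with a median of -0.13. Gabra4 had 64.7, 75.9 and 83.4 CPM (lowest, median and highest) in DBA/1J, against 97.3, 117 and 119 CPM in DBA/2J, a log2 fold change of -0.62 ± 0.08 (adjusted p = 9.68e-08), or -0.32 with the offset, and the strains did not overlap. Gabrg1 had -0.79 ± 0.09, or -0.22 with the offset. The GABA vesicle transporter gene Slc32a1 was higher (0.81 ± 0.14, or 0.23 with the offset), and Gad2, which makes GABA, was lower (-0.55 ± 0.09, or -0.29 with the offset).

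Of the ionotropic glutamate receptor genes, 8 of 18 were higher in DBA/1J and 5 lower (4 and 2 with the offset). Grin1, the obligate NMDA receptor subunit (0.56), and Gria2, an AMPA receptor subunit (-0.51), were called in opposite directions by count, and neither was called with the offset, at 0.12 and 0.05. The metabotropic list had 2 of 7 higher and 3 lower (0 and 2 with the offset). Among the lower ones, Grm5 had 253 to 320 CPM in DBA/1J and 416 to 503 CPM in DBA/2J (-0.75 ± 0.09, or -0.41 with the offset). Sodium and calcium channel genes had 8 of 24 higher and 9 lower (4 and 4 with the offset). Potassium channel genes had 14 of 37 higher and 12 lower (6 and 9 with the offset). Monoamine and acetylcholine receptor genes had 8 of 35 higher and 7 lower (2 and 4 with the offset). All these counts stand beside 29.5% higher and 25.4% lower over all genes, or 13.2% and 23.7% with the offset.

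Markers of the hippocampal fields were present at high level in both strains. Their called counts stand beside 29.5% higher and 25.4% lower over all genes, or 13.2% and 23.7% with the offset. The summed level of 15 dentate granule cell markers was 645 to 797 CPM in DBA/1J and 837 to 957 CPM in DBA/2J, without overlap, with 2 higher and 7 lower, and their median log2 fold change was -0.23 by count and 0.02 by FPKM, which turns the sign. Calb1, a calcium buffer of granule cells, had 60.6, 70.5 and 83.8 CPM (lowest, median and highest) in DBA/1J, against 119, 122.5 and 131 CPM in DBA/2J (-0.80 ± 0.09, or -0.30 with the offset), and Prox1, their fate-setting transcription factor, had -0.51 ± 0.08, or -0.27 with the offset. By the deposited FPKM the calls of Calb1 and Prox1 were lost, at -0.08 and -0.21. CA1 markers had 2 of 12 higher and 3 lower, and with the offset 2 and 7. They were led by Man1a, a mannosidase (-0.80 ± 0.09), and Itga7, an integrin (0.74 ± 0.12, or 0.37 with the offset). CA2 and CA3 markers had 3 of 15 higher and 4 lower, and with the offset 1 and 6. Map3k15, a kinase gene among them, had 34.0, 36.5 and 41.3 CPM in DBA/1J, against 66.0, 73.2 and 77.1 CPM in DBA/2J, and kept -0.92 with the offset. Cpne4, a CA3 marker, had -0.44 by count and 0.06 by FPKM.

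Markers of the other cell types went both ways. Their shares stand beside 29.5% higher and 25.4% lower over all genes, or 13.2% and 23.7% with the offset. Interneuron markers had 7 of 20 higher and 9 lower (3 and 6 with the offset), and oligodendrocyte markers 2 of 16 higher and 5 lower (0 and 6). Oligodendrocyte precursor markers had 3 of 9 higher and 1 lower, and with the offset 0 and 4. Endothelial markers had 6 of 15 higher and 3 lower (0 and 3 with the offset), and mural and fibroblast markers 6 of 16 higher and 2 lower (1 and 1). Dlx6os1, an antisense RNA of interneurons whose reads cannot be told apart from those of its partner gene, was lower (-0.74 ± 0.08, or -0.27 with the offset), and DBA/2J lay above all other libraries. Of 20 choroid plexus genes edgeR called 0 and DESeq2 0, with 1 at an unadjusted p under 0.05, and their summed level spanned 749.6 to 3419 CPM in DBA/1J and 227 to 5815 CPM in DBA/2J. Ependymal and ciliary genes had 1 of 16 higher and 1 lower. Genes of neighbouring regions gave 1 of 12 higher and 4 lower for thalamus, 2 of 12 higher and 1 lower for striatum, and 1 of 4 higher and 1 lower for pituitary, where Pou1f1, a pituitary transcription factor, had -1.28 ± 0.26. Blood genes had 4 of 6 higher and the other 2 not called, with Hbb-bt, a beta-globin gene, at 23.3 to 64.5 CPM in DBA/1J and 10.3 to 21.7 CPM in DBA/2J, and their summed level was 409.7 to 552 CPM in DBA/1J and 317 to 385 CPM in DBA/2J.

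The remaining functional lists were mixed. Their counts stand beside 29.5% higher and 25.4% lower over all genes, or 13.2% and 23.7% with the offset. Cholesterol synthesis genes had 11 of 23 higher in DBA/1J and 6 lower, and with the offset 4 and 3. Dhcr7, the reductase of a final step, was higher (0.46 ± 0.06, or 0.26 with the offset), and the enzymes of early steps, Hmgcs1 and Idi1 (-0.62 ± 0.08, or -0.34), were lower. Glutathione and detoxification genes had 11 of 34 higher and 5 lower, and 3 and 10 with the offset. Mgst3, a membrane-bound glutathione transferase, was higher (0.81 ± 0.11, or 0.53 with the offset), and Gclm, the modifier subunit of the enzyme that limits glutathione synthesis, was lower by count (-0.52 ± 0.06, or -0.18 with the offset) and higher by FPKM (0.25). Immediate early genes had 8 of 22 higher and 4 lower, and 1 and 4 with the offset. Circadian clock genes had 3 of 19 higher and 8 lower, and 1 and 8 with the offset.

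**Figure D5:**
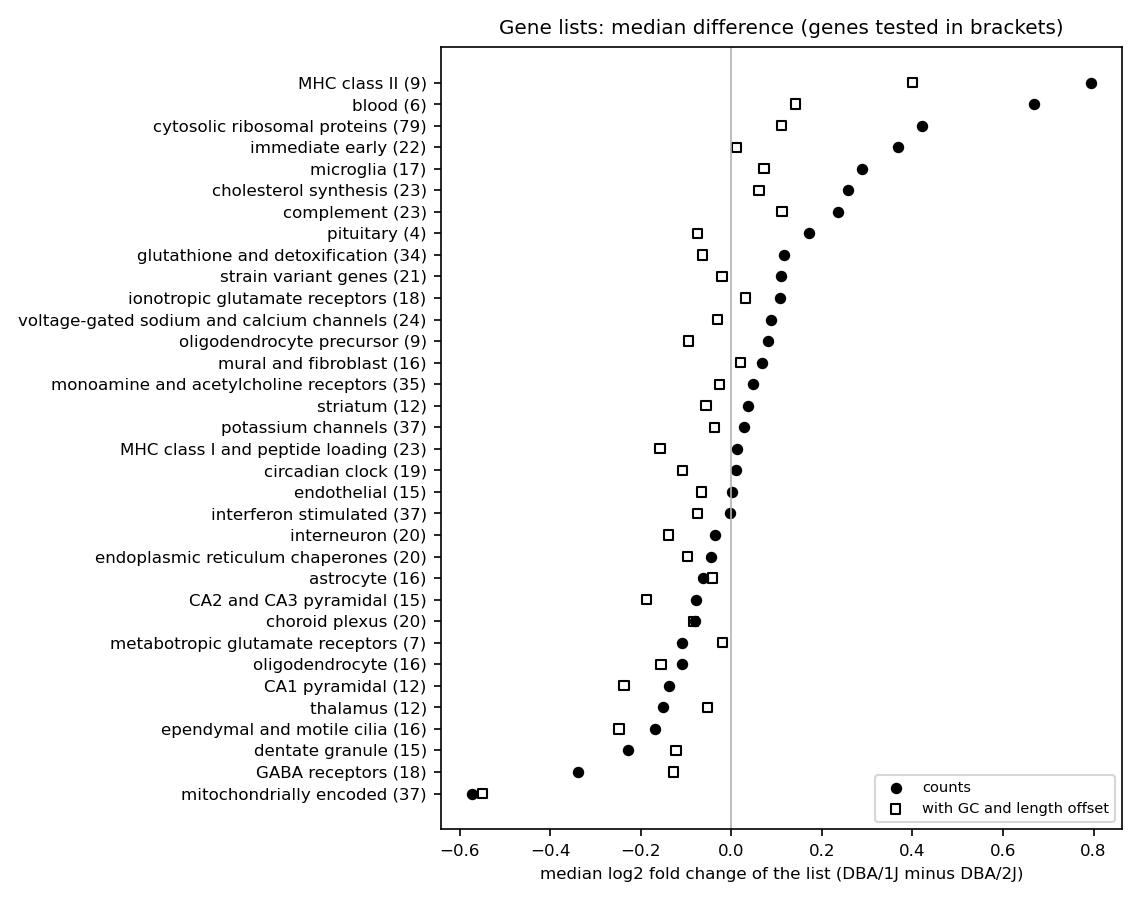
Median log2 fold change, DBA/1J minus DBA/2J, of the tested genes of 34 lists, from the counts (circles) and with the offset for GC content and length (squares). The mitochondrially encoded list lies at -0.57 by count and -0.55 with the offset, and the ribosomal protein list moves from 0.42 by count to 0.11 with the offset.

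Genes known to carry variants or expression differences among common inbred strains were taken as a list. Of 21 tested, 14 were called (66.7%, against 54.9% over all genes), 6 higher in DBA/1J and 8 lower. With the offset 4 were higher and 4 lower, where 13.2% of all genes were higher and 23.7% lower. Besides S100b and Gpnmb, Pttg1, the securin of chromosome separation, fell to 0.17, 0.27 and 0.50 CPM (lowest, median and highest) in DBA/1J, against 0.68, 1.17 and 1.89 CPM in DBA/2J, with up to 16.8 CPM in the other 4 strains. Nnt, a mitochondrial proton-pumping enzyme (0.42 ± 0.07), Alad, an enzyme of haem synthesis (0.60 ± 0.09, or 0.19 with the offset), and Ahr, the dioxin receptor (-0.39 ± 0.09, or -0.22), were also called both ways. By the deposited FPKM the call of Ahr was lost, at -0.09 with an adjusted p of 0.506 by limma. Of the rest, Kcnj9 (0.51), Wdfy1 (-0.25), Glo1 (-0.26), Myo5a (-0.27) and Ide (-0.31) were not called with the offset, and Hdhd3 (0.33) and Gabra2 (-0.46) turned to -0.16 and 0.00, neither called, with the offset. Glo1, Wdfy1 and Ide had the opposite sign by FPKM, at 0.14, 0.12 and 0.16, and Kcnj9 was called the same way by FPKM, at 0.71. Not called were Btbd9 (0.11), Cdh23 (0.71), Entpd4 (0.00), Fscn2 (0.60), Lefty1 (0.12), Mpdz (-0.14) and Tyrp1 (0.12). With the offset Btbd9 and Entpd4 had -0.07 and -0.14, and Lefty1 had -0.39 and was called (adjusted p = 0.0077). Of the 7, Fscn2 and Tyrp1 had under 1 CPM in every library of both strains.

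Set against all 6 strains, most of the differences set neither DBA strain apart. Of the genes called, 57 had all 6 DBA/1J libraries above and 74 below the other 30 libraries, and 71 had all 6 DBA/2J libraries above and 80 below, 1.43% of the genes tested in all. For the remaining 10540 called genes neither strain lay apart. Besides the genes above, DBA/2J lay below all others for Nat8f4, an acetyltransferase gene (4.87 ± 0.57 CPM in DBA/1J and 1.47 ± 0.18 CPM in DBA/2J), and Agtrap, which encodes a protein bound to the angiotensin receptor (12.6 ± 1.35 CPM in DBA/1J and 5.05 ± 0.69 CPM in DBA/2J, SD, n = 6 each). It lay above all others for Bet1 (log2 fold change -0.86, or -0.42 with the offset) and Ap3m1 (-0.64, or -0.29), both genes of vesicle transport. By the deposited FPKM the call of Ap3m1 was lost, at -0.24 with an adjusted p of 0.0575 by limma.

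The strain difference was present in both sexes. Of the genes tested, 6881 (34.9%) were called in males and 8361 (42.4%) in females, 5373 of them in both with the same sign and 5 with opposite signs, which is 78.1% of the male calls and 64.3% of the female calls. The interaction of strain and sex was called for 1 gene (0.00508%), with 1422 genes at an unadjusted p under 0.05 by edgeR and 3 calls by DESeq2's test. That gene was the Y-linked Uty, a histone demethylase gene, with 11.7 to 16.3 CPM in DBA/1J males and 18.2 to 21.2 CPM in DBA/2J males. Females, which lack a Y chromosome, had 1.5 to 1.73 CPM in DBA/1J and 0.11 to 0.55 CPM in DBA/2J, from 30 to 42 counts per DBA/1J female library and 2 to 4 per DBA/2J female library. The interaction was 3.01 ± 0.48 log2 units (adjusted p = 0.01), and rests on these few female counts.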

How the data were processed

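Deposited tables held, per gene and library, counts and FPKM. Per the submitters' processing notes, the tools were Cufflinks 2.1.1, DESeq2 1.8.1, SAMtools, Trimmomatic 0.32 and TopHat2 2.0.13. No source used here gives their order, the read counter or its strand setting. The authors' deposited counts were not normalized, and their deposited FPKM are scaled for transcript length and depth. The 6 strains' tables were joined by Ensembl gene (37315 genes). The counts of all 36 libraries were fitted with edgeR 4.0.16 (R 4.3.3) with TMM scaling and 12 means (strain by sex); filterByExpr (minimum count 10) kept 19702 genes. The quasi-likelihood F test gave DBA/1J minus DBA/2J with both sexes weighted equally, each sex, and their interaction, with Benjamini-Hochberg adjustment over all genes tested. SE values were derived from the F statistic and the log2 fold change. CPM are TMM-scaled, and genes are in GRCm38 coordinates.

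The compared strain pair, the gene lists and the named genes were chosen with earlier results of these data known. Named genes were the 14 per direction with the largest fold change among called genes of at least 1 CPM whose libraries did not overlap and whose symbol is not a clone or predicted name, the strain variant list, up to 4 called genes of each other list with the smallest p, and the genes with the smallest p in the interaction and among those where 1 strain stood apart. Protein-coding genes of the same kind with the largest fold change (16 per direction) were added after their values were seen. So were those of at least 10 CPM called the same way with the offset (12 per direction), their neighbours and snoRNA hosts. Called genes of windows from the 4 that held the most called genes are given as counts.

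The alternatives were DESeq2's size factors and test (version 1.42.0), other count filters, a replicate block, the 12 DBA libraries alone, counts thinned to the shallowest library, the 3 shallow DBA/2J libraries left out, each library left out, limma 3.58.1 on log2(FPKM + 0.1) and log2(FPKM + 1), and an offset fitted by loess (span 0.5) in every library to the GC percentage and log length, jointly, of a gene's longest transcript. Intervals cover counting error only. The fits were tested on simulated counts. Some genes that met these rules are not reported here.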

Additional observations from a re-analysis of the deposited data

Results flagged for a closer look

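For each gene named, the 6 libraries of each strain were searched for 1 library far from the other 5 by Dixon's criterion at 95%, which chance meets in about 1 of 20 groups. Of 234 groups, 24 (10.3%) met it.

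DBA/1J male replicate 3 was such a library for 7 genes. Gfap had 1280 CPM there against 257 to 286 CPM in the other 5 DBA/1J libraries, Ifit3 29.7 against 8.05 to 10.7 CPM, C1qa 37.0 against 21.2 to 25.9 CPM and Tap2 15 against 7.05 to 9.22 CPM. Gbp7 had 6.65 CPM against 1.81 to 2.54 CPM, Gpnmb 2.86 against 1.54 to 1.92 CPM, and Atp1a4, which was low, 4.69 against 6.31 to 7.42 CPM. Without this library, 10406 genes were called in DBA/1J minus DBA/2J.

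DBA/2J male replicate 1 was such a library for 6 genes, and it lay toward the DBA/1J level in each. It had 629 CPM for Tmem245 against 266 to 304 CPM in the other 5 DBA/2J libraries and 37.3 CPM for Lrrc17 against 8.24 to 14.5 CPM. It was low for Caps2 (121 CPM against 178 to 224 CPM), mt-Nd6 (1760 against 2170 to 2320 CPM), Gabra4 (97.3 against 117 to 119 CPM) and Grm5 (416 against 484 to 503 CPM). Without it, 10641 genes were called.

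In DBA/2J male replicate 2, S100b (49.6 CPM), Car2 (157 CPM), Tmem267 (3.88 CPM) and Aif1 (1.47 CPM) were low. The other flagged values were Sycp3 (3.84 CPM) and Ahr (13.5 CPM), high in DBA/1J male replicate 1, Gabra2 (117 CPM) and Ide (28.8 CPM), low in DBA/1J male replicate 2, and Rpl37 (59.0 CPM, low) and Lefty1 (6.19 CPM, high) in DBA/1J female replicate 3. Glo1 was high in DBA/2J female replicate 1 (196 CPM).

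The strain difference of Uty differed between the sexes by the interaction test, at 3.01 log2 units (adjusted p = 0.01 by edgeR), and was not called without DBA/2J female replicate 1 (2.19, adjusted p = 0.77) or by limma on FPKM (1.502 with a pseudocount of 0.1).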

How the results depend on the processing

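Of 117 named genes 110 were called; 86 of these kept their direction and call under all 26 alternatives, and 108 without each library in turn. The offset for GC content and length lowered the genes called to 7068, those higher in DBA/1J to 2521, and the calls in males and females to 3651 and 4387. Limma on FPKM with pseudocounts of 0.1 and 1 called 2136 and 2201 genes lower in DBA/1J. Calls in females were 5509 without the 3 shallow DBA/2J libraries. Of the calls, 53.7% were higher in DBA/1J, against 35.7% with the offset, 79.0% and 78.2% by FPKM and 62.0% with no count filter. The interaction was called for 4 genes with no count filter, 3 by DESeq2's test, and 0 with the 12 DBA libraries and the replicate block, with thinned counts or with FPKM at either pseudocount. Leaving out each library gave 9886 to 10703 genes called, 5285 to 6286 higher, 4071 to 4982 lower, 4786 to 6932 in males, 6278 to 8488 in females and 0 to 5 in the interaction. Same-numbered libraries did not vary together (r from -0.09 to 0.13), and the replicate block gave 10677 calls, 6687 in males and 8282 in females, with no named gene's strain call changed. The cause of these changes was not tested.

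The offset turned the sign of Gabra2 (0.000929), Gria2 (0.0469), Hdhd3 (-0.164), Rpl3 (-0.032), Lefty1 (-0.386), Btbd9 (-0.0668) and Entpd4 (-0.139). FPKM with pseudocounts of 0.1 and 1 turned Dip2a (0.559 and 0.52), Slc1a2 (0.187 and 0.186), Cpne4 (0.0612 and 0.0593), Wdfy1 (0.119 and 0.109), Glo1 (0.135 and 0.134), Ide (0.161 and 0.145), Gclm (0.252 and 0.232), Mpdz (0.0132 and 0.0128) and Tyrp1 (-0.128 and -0.041). Of genes not called, Tyrp1 ran from -0.12 to 1.14 and Entpd4 from -0.0106 to 0.0731 without single libraries, and Entpd4 had -0.000367 with mitochondrial genes left out before scaling. H2-DMa, H2-DMb2, Hdhd3 and Myo5a were not called without the 3 shallow libraries.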
